A study of Mus musculus with 12 samples.

Results

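Clustered histone genes encode the proteins around which nuclear DNA is wound. They were chosen here by symbol, as protein-coding RefSeq genes of the mouse assembly GRCm38 whose names start with H1f, H2ac, H2bc, H3c or H4c and a digit, or with the older Hist prefixes. The rule found 67 of the 21887 protein-coding genes on chromosomes 1 to 19, X and Y, namely 10 H1, 17 H2A, 16 H2B, 12 H3 and 12 H4 genes. Of these, 63 lie in 3 clusters, defined as 3 or more members with gaps of at most 1 Mb. The chromosome 3 cluster held 10 members in 50.3 kb, the first chromosome 13 cluster 22 members in 327.9 kb and the second chromosome 13 cluster 31 members in 403.9 kb. The other 4 members, the linker histone genes H1f0, H1f7, H1f8 and H1f10, stand alone on chromosomes 15 and 6.

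Lysine crotonylation was mapped in dorsal hippocampus by chromatin immunoprecipitation and sequencing (ChIP-seq) with an antibody against crotonyl-lysine on any protein (pan-Kcr). One library came from C57BL/6J mice trained in spatial object recognition, which tests memory for the places of objects (learning), and the other from C57BL/6J mice left in the home cage (homecage). Age and sex are not given for these libraries, and it is not stated whether a library pools several animals. The deposited lists give the position and width of each called peak and no strength, so the read depth behind them is unknown. The learning list held 16002 peaks on chromosomes 1 to 19, X and Y, covering 5.62 Mb, and the homecage list 331236 peaks covering 133.2 Mb. With 1 library per condition there is no replicate error, no p-value is given, and every comparison describes these lists. Intervals are exact Clopper-Pearson 95% intervals, which cover counting error and treat genes as independent, although neighbouring genes can share a peak. Peaks do not measure expression, so the tissue could not be checked by its markers. A peak lay at 10 of 22 brain cell type markers in the learning list and at 21 of 22 in the homecage list, and at 1 and 3 of 4 genes typical of other organs. Of all protein-coding genes, 26.9% and 81.7% had one. These lists were not matched for length, and the 5 neuron markers had a median length of 267382 bp, against 17169 bp for all genes.

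Pairs of H2A and H2B and pairs of H3 and H4 form the nucleosome core, and H1 binds the linker DNA between nucleosomes. Most clustered genes lack introns, are transcribed in S phase when new DNA must be packed, and end their messages in a stem-loop instead of a poly(A) tail. Many H2A and H2B genes share a divergent promoter. Crotonylation neutralises the charge of lysine, as acetylation does, occurs on all core histones and on H1, and is known from active promoters and enhancers. Neurons do not divide, and replacement histones made outside S phase take over in them.

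The promoters of 4 members are shown first because the peaks treat them differently. Each runs from 250 bases before to 50 bases after the RefSeq start (GRCm38.p6), 5' to 3' on the gene's strand. Capitals mark TATAAA (the core promoter box of that name), CCAAT (the site of NF-Y), ATTTGCAT (octamer, the site of Oct1 in H2B genes) and AAACACA (the AC box of H1 genes), on either strand. H1f0 (chr15:79027962-79028261, plus strand) had its whole window inside a peak of both libraries. The window of H2ac24 (chr13:21833426-21833725, minus strand) lay inside a homecage peak. That of H2ac1 (chr13:23934187-23934486, plus strand) had 263 of its 300 bases in a homecage peak. The window of H2bc3 (chr13:23746484-23746783, plus strand) held no peak, while learning peaks lay on both sides of it.
H1f0: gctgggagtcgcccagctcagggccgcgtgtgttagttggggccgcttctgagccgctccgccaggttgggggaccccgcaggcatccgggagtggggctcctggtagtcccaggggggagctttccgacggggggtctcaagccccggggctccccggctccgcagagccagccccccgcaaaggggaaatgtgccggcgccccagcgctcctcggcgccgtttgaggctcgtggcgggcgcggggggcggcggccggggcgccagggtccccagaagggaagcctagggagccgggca
H2ac24: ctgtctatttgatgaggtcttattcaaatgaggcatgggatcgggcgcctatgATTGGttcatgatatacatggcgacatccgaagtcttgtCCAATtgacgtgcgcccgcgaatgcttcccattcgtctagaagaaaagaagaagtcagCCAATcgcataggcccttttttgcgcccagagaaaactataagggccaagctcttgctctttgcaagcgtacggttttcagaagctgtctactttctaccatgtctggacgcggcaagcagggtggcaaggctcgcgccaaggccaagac
H2ac1: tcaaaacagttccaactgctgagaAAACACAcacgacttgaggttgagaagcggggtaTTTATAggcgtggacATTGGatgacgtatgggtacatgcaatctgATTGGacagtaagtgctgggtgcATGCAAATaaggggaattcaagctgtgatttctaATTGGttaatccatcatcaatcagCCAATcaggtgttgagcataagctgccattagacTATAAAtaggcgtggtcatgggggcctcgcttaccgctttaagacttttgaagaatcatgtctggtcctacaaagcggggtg
H2bc3: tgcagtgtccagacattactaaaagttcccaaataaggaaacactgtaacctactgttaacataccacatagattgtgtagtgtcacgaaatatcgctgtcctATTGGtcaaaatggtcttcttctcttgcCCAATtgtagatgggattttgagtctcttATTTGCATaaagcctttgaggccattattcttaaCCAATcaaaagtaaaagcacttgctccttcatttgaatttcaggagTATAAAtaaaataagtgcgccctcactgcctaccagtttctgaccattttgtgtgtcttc

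The H1f0 window holds none of these motifs in its 300 bases and is 75% G and C, against 50.3% for H2ac24, 45.0% for H2ac1 and 38.0% for H2bc3. Among 60 members with a promoter at an annotated end of the gene, 49 (81.7%) held a CCAAT box and 33 (55.0%) a TATA box. The shares of all 32851 promoters in the same table were 37.4% and 13.6%. By type, 17 of 17 H2A, 12 of 12 H2B, 10 of 10 H3 and 7 of 10 H1 promoters held a CCAAT box. Only 3 of 11 H4 promoters (27.3%) did, a share below that of all promoters. The octamer was found in 6 of 12 H2B and 6 of 17 H2A promoters, in no H1, H3 or H4 promoter and in 1.74% of all promoters. The AC box was found in 5 of 10 H1, 2 of 17 H2A and 2 of 12 H2B promoters, in no H3 or H4 promoter and in 7.18% of all. H2A and H2B promoters that face each other were counted under both genes, and a match of letters is no measured binding site. The median share of G and C was 43.7% in 11 promoters of members with a learning peak, 50% in 23 with a homecage peak alone and 44.0% in 26 without a peak. The part of base composition in the peak calls was not tested.

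A gene was counted with a peak when at least 1 bp of a peak lay in the gene or within 1 kb of its ends. A learning peak was present at 13 of the 67 members (19.4%, interval 10.8 to 30.9%), against 26.9% of all protein-coding genes. A homecage peak was present at 35 members (52.2%, 39.7 to 64.6%), against 81.7% of all genes. Both libraries had a peak at 9 members (13.4%, all genes 26.4%), the learning library alone at 4 (5.97%, all genes 0.539%) and the homecage library alone at 26 (38.8%, all genes 55.4%). No peak was present at 28 members (41.8%), against 17.7% of all genes. Both shares of members with a peak were thus below those of all genes, and the share with a learning peak alone was above it. That share rests on 4 members, of which H3c3 and H2bc3 share a peak, and on peaks of 147 to 356 bp. It was 1 of 37 (2.70%) when members with overlapping windows were joined and 2 of 67 (2.99%) with windows of 3 kb, where all genes had 0.393%. With peaks of at least 500 bp it was 0 of 67, and all genes had 0.612%, so at that width the members could not be told apart from all genes.

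The members are short, with a median length of 496 bp against 17169 bp for all protein-coding genes, and a short window meets fewer peaks. Among genes of at most 1 kb, 9 of 58 members (15.5%, 7.35 to 27.4%) had a learning peak, compared with 40 of 1577 protein-coding genes of that length (2.54%, 1.82 to 3.44%). A homecage peak was present at 27 of the 58 members (46.6%, 33.3 to 60.1%) and at 607 of the 1577 genes (38.5%, 36.1 to 40.9%). Of those 1577 genes, 1001 are olfactory, vomeronasal, trace amine or taste receptor genes. Without these receptors and the members, 8 of 518 genes (1.54%) had a learning peak and 116 (22.4%) a homecage peak. With length limited in this way, the members' learning share lay above that of the other short genes. The 9 members include the pairs H2ac21 and H2ac20, H3c13 and H2bc18, H2ac8 and H2bc8, and H3c3 and H2bc3. Each pair shares a learning peak, so fewer peaks than genes stand behind the 15.5% and its interval. Members with overlapping windows were not joined for this comparison.

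Coverage takes the length of the windows into account, but not how far their parts lie from the gene start. Learning peaks covered 1.37% of the joined 1 kb windows of the members and 0.289% of those of all protein-coding genes. Homecage peaks covered 8.13% and 5.52%. In genes no longer than the longest member of a cluster (H2bc6, 37455 bp), the covered shares were 0.508% and 6.12%. In the 1 kb upstream of the start, learning peaks covered 2.07% for 62 members and 1.22% for 17492 protein-coding genes. Homecage peaks covered 11.1% and 8.83% there. The members' upstream learning bases lay in part under the H1f0 peak over its start and a 356 bp peak shared by H3c3 and H2bc3. The rest lay under peaks that overlapped H3c13, H2ac8 and H1f4 and counted upstream of their neighbours H2bc18, H2bc8 and H2bc6. In the 1 kb downstream of the gene, the shares were 0.899% and 0.297% (learning) and 7.72% and 5.54% (homecage). Within the gene bodies of members of at most 1 kb, 3.62% lay under learning and 16.6% under homecage peaks, compared with 0.394% and 7.85% for all protein-coding genes of that length. The 4 single H1 genes held 1180 of the 2739 bp under learning peaks, 6.56% of their windows, and the 63 members in clusters had 0.854%. All of the 1180 bp lay at H1f0 (806 bp) and H1f10 (374 bp), and H1f7 and H1f8 had no learning peak.

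**Figure D1:**
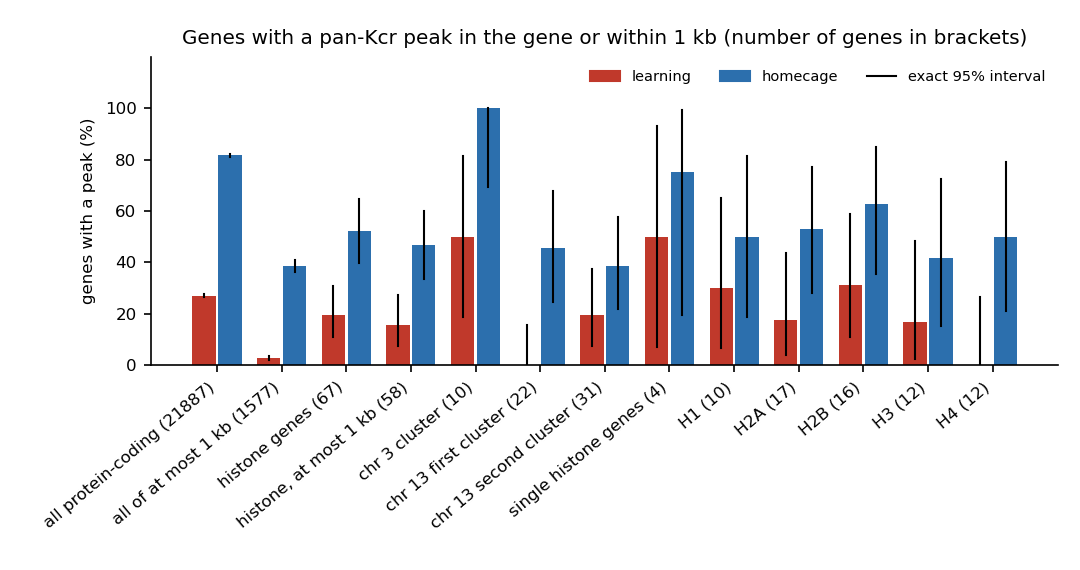
Percentage of genes (vertical axis) with a learning (red) or homecage (blue) peak in the gene or within 1 kb, for all protein-coding genes, those of at most 1 kb, and the histone genes by length, cluster and type, with the number of genes in brackets and exact 95% intervals as black lines. The chromosome 3 cluster had a homecage peak at 10 of 10 members, and the first chromosome 13 cluster and the H4 genes had no learning peak. Of all protein-coding genes of at most 1 kb, 2.54% had a learning peak.

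The clusters differed from one another in these lists. In the chromosome 3 cluster, which holds H2A, H2B, H3 and H4 genes, 10 of 10 members had a homecage peak and 5 of 10 a learning peak. Because neighbouring members share peaks, these counts rest on 5 homecage and 2 learning peaks. Among these members, H2ac18 and H2ac19 share promoter sequence, as do H3c14 and H3c15, so the homecage peaks at these genes are uncertain. The first chromosome 13 cluster had a homecage peak at 10 of 22 members and a learning peak at 0 of 22, which allows a share of up to 15.4%. The second chromosome 13 cluster had a homecage peak at 12 of 31 members and a learning peak at 6 of 31. Of all protein-coding genes, 81.7% had a homecage and 26.9% a learning peak, and of those of at most 1 kb 38.5% and 2.54%. The 28 members with no peak were 12 in the first and 15 in the second chromosome 13 cluster, and the testis gene H1f7. None lay in the chromosome 3 cluster. Promoters were richer in G and C there (median 55.8% of 8) than in the first (44.3% of 21) and second (45.7% of 27) chromosome 13 clusters, and whether this bears on the peak calls was not tested.

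Counted per Mb from the first to the last member, the learning list had 39.8 peaks in the chromosome 3 cluster (2 peaks) and 5.30 on the rest of that chromosome. The first chromosome 13 cluster had 3.05 (1 peak) and the second 12.4 (5 peaks), compared with 5.44 and 5.41 on the remainder of chromosome 13. Homecage densities were close to those of the chromosomes, at 119.3 against 134.2 on chromosome 3 and at 131.1 and 108.9 against 138.0 on chromosome 13. With 1 to 5 learning peaks per cluster, these densities rest on few counts.

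Inside the clusters, homecage peaks covered more of the windows of the members than of the sequence between them. Member windows made up 34.8% of the chromosome 3 cluster, and held both learning peaks and 5 of 6 homecage peaks. In the second chromosome 13 cluster, they made up 25.9% of the span and held 4 of 5 learning and 15 of 44 homecage peaks. In the first, they made up 16.6% and held 11 of 43 homecage peaks but not the single learning peak. Homecage peaks covered 16.5% of the member windows and 2.95% of the other sequence in the chromosome 3 cluster. The same shares were 8.02% and 4.67% in the first chromosome 13 cluster, and 6.27% and 3.60% in the second.

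The 9 non-histone protein-coding genes inside the clusters all lie on chromosome 13, and none in the chromosome 3 cluster. A homecage peak was present at 7 of these 9 and a learning peak at 1, the zinc finger gene Zfp184, with 553 bp covered. The largest homecage coverage among them was at Slc17a2 (1667 bp), Slc17a4 (1515 bp) and Trim38 (1135 bp), which encode 2 organic anion or phosphate transporters and a ubiquitin ligase of the TRIM family. In the first chromosome 13 cluster, their windows were covered to 1.5% by learning peaks and those of the members to 0%, while homecage peaks covered 2.73% and 7.74%. In the second, learning peaks covered 0% of their windows and 0.771% of those of the members, and homecage peaks 4.24% and 6.15%. The 1487.4 kb between the chromosome 13 clusters, with 36 vomeronasal receptor genes among its 41 genes, had 138.5 homecage and 5.38 learning peaks per Mb.

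**Figure D2:**
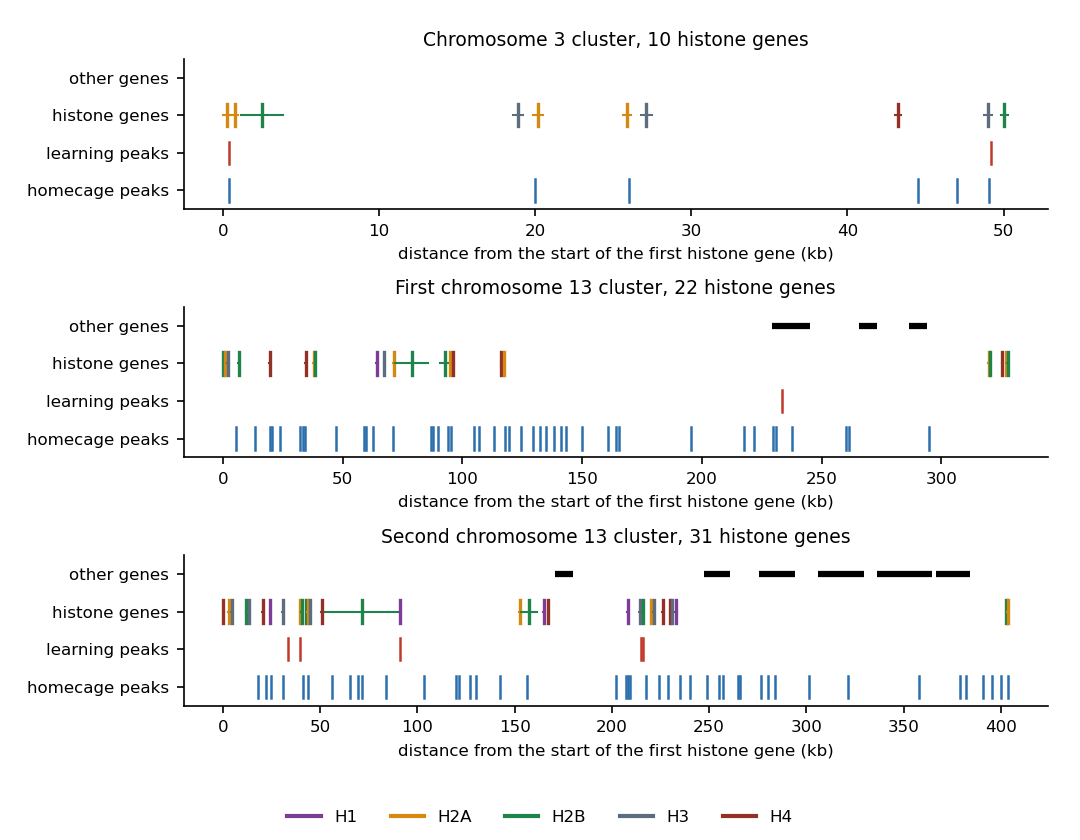
Positions along the 3 histone gene clusters, as distance in kb from the start of the first member, of histone genes (coloured by type, with a tick at the gene's centre), other protein-coding genes (black), learning peaks (red) and homecage peaks (blue), each peak drawn at its centre. The 2 learning peaks of the chromosome 3 cluster sit on histone genes at its ends, and the learning peak of the first chromosome 13 cluster sits at Zfp184.

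In all, 8 distinct learning peaks and 36 distinct homecage peaks touched the member windows. Of the learning peaks, 7 overlapped a member itself, and of the homecage peaks, 26. The median width was 293.0 bp for the learning peaks and 435.5 bp for the homecage peaks, compared with 312.0 and 355.0 bp for peaks at all protein-coding genes. A homecage peak overlapped 4 of the 8 learning peaks (interval 15.7 to 84.3%) and 48.6% of the learning peaks at all protein-coding genes. In the other direction, 4 of 36 homecage peaks (11.1%) overlapped a learning peak, against 2.86% at all genes. The 4 that overlapped lay at H1f0, H1f10, the H2ac20 and H2ac21 pair and H3c13. The other 4 were in the second chromosome 13 cluster.

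Linker histone genes had the widest peak pair. H1f0, whose product accumulates in cells that have stopped dividing, had a learning peak of 806 bp that spanned its start, from position -356 to 449 (bp from the start, negative before it). The homecage peak there was 1393 bp wide, from -584 to 808, and contained the learning peak. A second homecage peak of 275 bp lay inside the gene, 1451 bp from the start. In the 4293 bp window, learning peaks covered 806 bp (18.8%) and homecage peaks 1668 bp (38.9%). H1f0 was therefore the member with the most covered sequence in the learning list, and the only one of 62 members with a promoter in the table to have a learning peak in its promoter window.

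H1f10, which encodes a linker variant made outside S phase, had a learning peak of 374 bp and a homecage peak of 399 bp, both inside the gene. They began 179 and 252 bp after the start and shared 301 bp. H1f4, a main somatic H1 gene, had a learning peak of 162 bp inside the gene, from 379 to 540 bp after the start, and no homecage peak in its window. The nearest homecage peak was 6693 bp away. This same learning peak came within 1 kb of the annotated start of H2bc6, with 107 bp in its window.

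Other H1 genes had homecage peaks alone. H1f2, a somatic H1 gene, had 3 of them, of 233, 504 and 626 bp, before, inside and after the gene, and 1303 bp (47.8%) of its window was covered. This was the largest homecage coverage of the members without a learning peak. H1f3 had 1 homecage peak of 472 bp inside the gene. The oocyte gene H1f8 had homecage peaks of 147 bp over its start and 288 bp further in. The somatic genes H1f1 and H1f5 and the testis genes H1f6 and H1f7 had none in either list. The H1 genes with a learning peak thus numbered 3 of 10 (all protein-coding genes 26.9%), and those with a homecage peak 5 of 10 (all genes 81.7%).

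The types were also compared by peaks inside the gene itself. Inside the gene, 76.9% of all protein-coding genes had a homecage and 24.8% a learning peak, and of those of at most 1 kb 20.5% and 1.40%. Counted with 1 kb flanks, a learning peak was present at 3 of 17 H2A and 5 of 16 H2B genes, and a homecage peak at 9 of 17 and 10 of 16. With these flanks, 26.9% of all protein-coding genes had a learning and 81.7% a homecage peak, and of those of at most 1 kb 2.54% and 38.5%. A homecage peak overlapped the gene itself at 9 of 17 H2A genes (35.6% of their length) and at 5 of 10 H1 genes (19.6%). Of the 11 H2B genes of at most 1 kb, 0 had one. A learning peak overlapped 3 of 17 H2A genes (6.91% of their length), 3 of 10 H1 genes (6.78%) and 1 of 11 short H2B genes (3.01%). The 3 H2B genes with a homecage peak inside, H2bc4, H2bc6 and H2bc23, are annotated with bodies of 8282, 37455 and 3788 bp. Of the H3 genes, 2 of 12 had a homecage peak inside (10.1% of length), and of the H4 genes, 2 of 12 (5.84%). The order of the types was not tested. Among the H2A genes with a homecage peak inside, H2ac18 and H2ac19 share promoter sequence, as do H2ac23 and H2ac24, so their peaks are uncertain.

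The facing H2A genes H2ac21 and H2ac20 on chromosome 3, whose 3' ends meet, shared a learning peak of 506 bp and a homecage peak of 695 bp that contained it. The learning peak ran from 144 to 649 bp after the start of H2ac21, and from 346 to 851 bp after that of H2ac20. Both peaks also came within 1 kb of H2bc21, which encodes an H2B variant studied in neurons, without reaching the gene. H2bc21 therefore counted as having peaks of both libraries, with 463 and 533 bp of its window covered, although none lay in the gene.

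H2ac8, in the second chromosome 13 cluster, had a learning peak of 147 bp inside the gene, from 291 to 437 bp after the start, and no homecage peak. The nearest homecage peak was 1410 bp away, in the window of its divergent partner H2bc8, where it was 295 bp wide and downstream. The learning peak lay upstream of H2bc8, at -617 to -471, so H2bc8 counted with both libraries although their peaks did not overlap. H2ac24 had the widest homecage peak of an H2A gene, 1118 bp from -488 to 629, covering the gene and its promoter. The closely related H2ac23 had homecage peaks of 307 and 593 bp and 900 bp of its window covered. H2ac7 and its divergent partner H2bc7 shared a homecage peak of 714 bp that lay over the end of H2ac7, and at -1028 to -315 of H2bc7. H2ac24, H2ac23, H2ac7 and H2bc7 had no learning peak.

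H2bc3 had the largest learning coverage of the H2B genes, with peaks of 158 bp inside the gene and 356 bp upstream, together 514 bp (20.6% of its window), and no homecage peak. The 158 bp peak lay from 172 to 329 bp after the start. The upstream peak, from -810 to -455, also counted for H3c3, where it lay from -758 to -403. It overlapped the histone pseudogene H2ac5-ps, which lies between these genes. Homecage peaks were 1599 and 2383 bp away. H2bc18 on chromosome 3 had no peak in the gene, but the H3c13 peaks of both libraries lay upstream of it, at -731 to -502 (learning) and -993 to -436 (homecage). H2bc6, with an annotated body of 37455 bp, had 5 homecage peaks in it, of 237 to 764 bp, none overlapping the learning peak at H1f4. The further H2B genes H2bc14 and H2bc22 counted with homecage peaks upstream or downstream, of 625 bp at H2bc14 and of 178 and 537 bp at H2bc22. The 178 bp peak also overlapped H2ac22.

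A learning peak was present at 2 of 12 H3 genes, H3c3 and H3c13, and a homecage peak at 5 of 12. H3c13 had peaks of both libraries at the end of the gene. Its learning peak of 230 bp ran from 315 to 544 bp after the start, inside a homecage peak of 558 bp. H3c6 had a homecage peak of 265 bp inside the gene. H3c14 and H3c15 counted with homecage peaks of 677 and 600 bp, which lay upstream, over the H2A genes H2ac18 and H2ac19, and H3c4 with the peak of H2ac7. H4 genes had a homecage peak at 6 of 12 and a learning peak at 0 of 12, which allows a share of up to 26.5%. All 12 H3 and 12 H4 genes are at most 1 kb long. Of all protein-coding genes of that length, 38.5% had a homecage and 2.54% a learning peak, so 0 of 12 cannot be told apart from other short genes. At H4c11 and H4c12, homecage peaks of 193 and 147 bp overlapped the gene, and at H4c1, H4c14, H4c17 and H4c18 the peaks lay outside it.

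**Figure D3:**
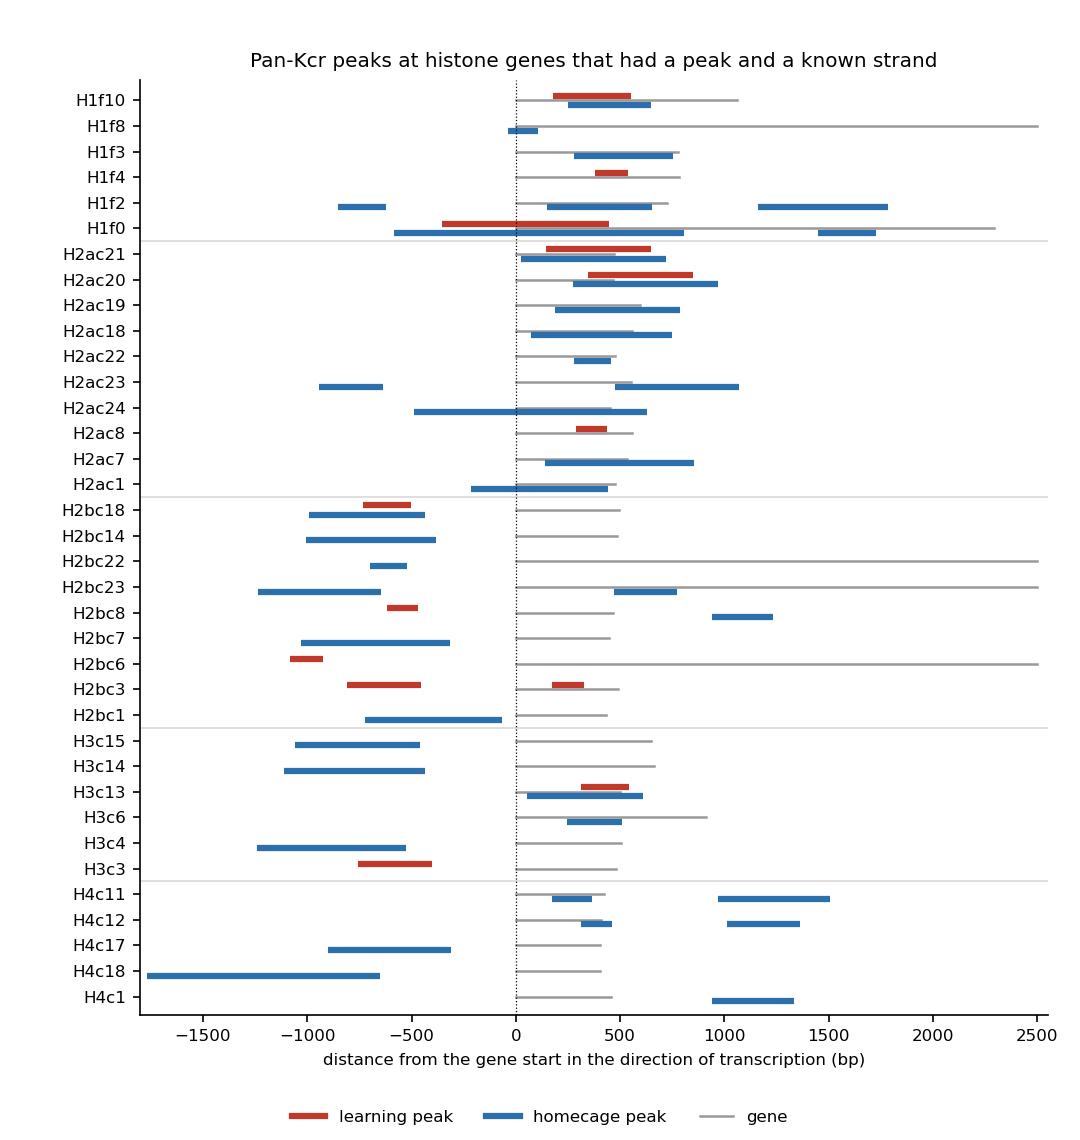
Learning (red) and homecage (blue) peaks at the histone genes with a peak and a known strand, drawn by distance in bp from the gene start in the direction of transcription, with genes as grey lines cut at 2500 bp and peaks starting beyond that point left out. A homecage peak overlaps 9 of 17 H2A genes, and none overlaps an H2B gene of at most 1 kb, where H2bc3 alone has a learning peak inside.

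Fewer members had a peak over the start itself than on either side of it. A homecage peak lay over the start of 4 of 62 members with a known strand (6.45%), over the position 350 bp after it in 16 (25.8%) and over that 650 bp before it in 13 (21.0%). A learning peak lay over the start of 1 (1.61%), over the position 400 bp after it in 7 (11.3%) and over that 550 bp before it in 4 (6.45%). For 17492 protein-coding genes, the highest values were at 300 bp after the start, with 23.4% in the homecage and 8.12% in the learning list. At the start itself, all genes had 12.9% and 3.02%, and 500 bp before it 10.1% and 1.58%. All genes thus had a maximum after the start as well, whereas before it their shares fell with distance and showed no maximum like that of the members. A peak can count after the start of a gene and before that of its neighbour. For the 13 members with a homecage peak 650 bp before the start, that peak also overlapped another member, except at H1f2 and H2bc14. The 4 learning counts 550 bp before the start came from the H3c13 and H2ac8 peaks and 1 peak shared by H3c3 and H2bc3. The members' maximum before the start thus comes mostly from peaks at neighbouring members.

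The promoter window of 250 bp before to 50 bp after the start held a learning peak in 1 of 62 members (1.61%, 0.0408 to 8.66%), against 5.61% of all genes. It held a homecage peak in 6 of 62 (9.68%, 3.63 to 19.9%), against 21.3% of all genes. The 6 were H1f0, H1f8, H2ac1, H2bc1, H2ac21 and H2ac24. In 8 divergent H2A and H2B pairs, with starts 164 to 281 bp apart, a homecage peak lay between the starts of 1 pair and a learning peak between those of none. That pair was H2ac1 and H2bc1, which encode the testis histones TH2A and TH2B, with 214 of the 281 bp covered by a homecage peak of 654 bp.

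**Figure D4:**
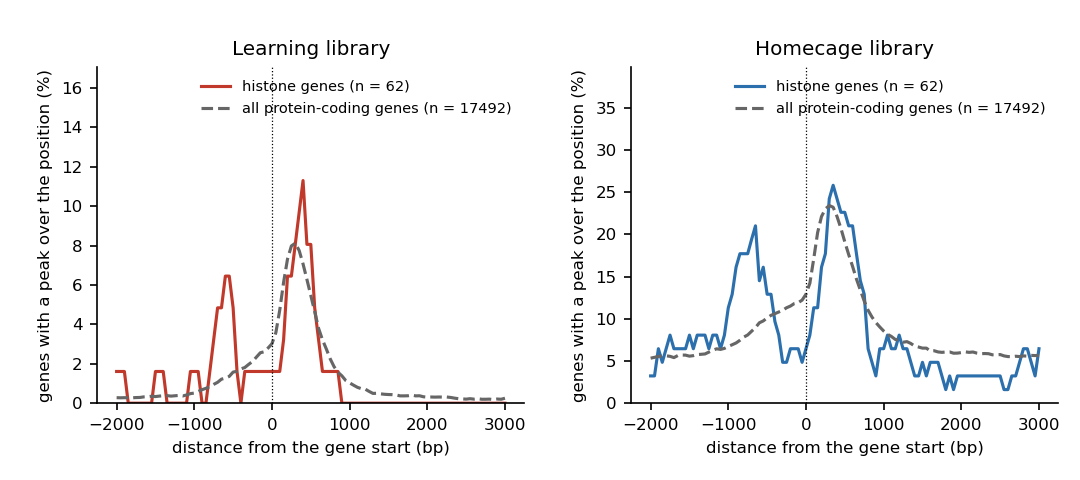
Percentage of genes with a learning (left) or homecage (right) peak over each position from 2000 bp before to 3000 bp after the gene start, for 62 histone genes (solid) and 17492 protein-coding genes (dashed), in steps of 50 bp. The histone genes have a maximum on each side of the start, 650 bp before and 350 bp after it in the homecage list, and a low value at the start itself. The maximum before the start comes mostly from peaks that overlap a neighbouring histone gene.

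Some members share promoter sequence, and reads from identical stretches cannot always be placed. Of the pairs of members whose promoter windows do not overlap in the genome, 8 shared a word of 30 letters, and 4 shared at least 50% of their words. These were H4c17 and H4c18 (94.5%), H3c14 and H3c15 (83.4%), H2ac18 and H2ac19 (70.1%) and H2ac23 and H2ac24 (63.1%). The members of these 4 pairs had a homecage peak and no learning peak. Of all 67 members, 52.2% had a homecage and 19.4% a learning peak, and of protein-coding genes of at most 1 kb 38.5% and 2.54%. How reads with several equal placements were handled is not given in the sources used here, so the peaks at these 8 genes are uncertain, and the part of sequence identity in them was not tested. Coding sequences were not compared.

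Genes of related roles were taken from lists and set beside the 26.9% and 81.7% of all genes. Of 9 replacement histone genes, which supply histones outside S phase, 3 had a learning peak and 9 a homecage peak. Learning peaks covered 1165 bp at Macroh2a1, 891 bp at H3f3a and 471 bp at H2az1, and homecage peaks covered the most at Macroh2a1 (6288 bp), Macroh2a2 (2911 bp) and H3f3a (1224 bp). H3f3b, the other gene for H3.3, had a homecage peak alone. Per window length, replacement histones (1.47% learning, 7.99% homecage) were close to all 67 members together (1.37% and 8.13%). The 63 members inside clusters had 0.854% and 7.57%, and the 4 single H1 genes 6.56% and 13.9%. Only H1f0 and H1f10 of these single genes had a learning peak.

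Of 19 genes for histone transcription and 3' end processing, 7 had a learning peak and 16 a homecage peak. Their median length was 27647 bp, against 17169 bp for all genes. Learning peaks covered 0.495% and homecage peaks 5.32% of their windows (all genes 0.289% and 5.52%). The most learning-covered were Pou2f1 (1531 bp), which encodes the octamer-binding Oct1, Yy1 (590 bp) and Cpsf2 (414 bp), a subunit of the cleavage complex. Homecage coverage was largest at Pou2f1 (8073 bp), Nfyc (5207 bp), a subunit of the CCAAT-binding factor, and Gon4l (4162 bp). Slbp, whose product binds the stem-loop of histone messages, had a learning peak of 146 bp and a homecage peak of 1302 bp. Npat, the coactivator of histone loci, had 6 homecage peaks and no learning peak.

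Of 19 histone chaperone genes, 9 had a learning peak and 16 a homecage peak. Their median length was 27611 bp, against 17169 bp for all genes. Learning peaks covered 0.906% and homecage peaks 5.81% of their windows (all genes 0.289% and 5.52%). The centromere chaperone gene Hjurp had the largest coverage in both lists, 3748 and 8222 bp, from 8 learning and 11 homecage peaks. The learning share of the chaperones therefore rests in large part on this 1 gene. Learning coverage was next largest at Nap1l1 (735 bp) and Ssrp1 (546 bp), and homecage coverage at Cabin1 (7990 bp) and Hira (6382 bp). Of 16 DNA replication and proliferation genes, 1 had a learning peak, E2f1 with 247 bp, and 14 a homecage peak, with the most at Mcm5 (2374 bp), Ccne1 (1492 bp) and Top2a (1323 bp). Their windows were covered to 0.0922% by learning and to 3.99% by homecage peaks, compared with 0.289% and 5.52% for all genes.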

How the data were processed

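The series holds 12 libraries. Peak lists of the learning and homecage pan-Kcr libraries were used, and the 8 single-nucleus and 2 input libraries were not analysed here. The deposited values are positions: per the file headers and columns, a chromosome, a start, an end and a peak name that says broad peaks at p 0.01. Trimmomatic, BWA, MACS2 and mm10 are named by the submitters' processing notes, without settings. Use of the input as control is not given in the sources used here.

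Libraries were grouped by title. Genes came from RefSeq GRCm38.p6, promoters and strand from a RefSeq table of the same build that matched 62 of 67 members (60 at an annotated gene end). Histone genes with other current symbols (H2aw, H2bu2, H4bc24, H4f16) fall outside the rule. Peaks on chromosomes 1 to 19, X and Y were intersected with genes extended by 1 kb (at least 1 bp of overlap). Covered lengths use joined windows. Named members are those with a learning peak (at most 20), the 5 with most homecage-covered bp without one, and in other lists the 3 with most covered bp in each library; further members were named to account for their type after their values were seen. The members and lists were chosen with earlier results of these data known. Functions were tested on simulated lists. Software was matplotlib 3.10.9, scipy 1.17.1, pandas 2.3.3 and numpy 2.4.6 under Python 3.11.15. Depth is unknown. Alternatives were other windows, peak centres, a 500 bp minimum width, merged peaks, members in clusters, joined members and a shortened homecage list.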

Additional observations from a re-analysis of the deposited data

How the results depend on the processing

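No paired analysis was possible because learning and homecage had 1 peak list each, and no replicate could be left out. Of 95 values computed under an alternative, 72 stayed inside the interval of the reported share (or, for counts, coverage and densities, within 1.5 times the reported value), and 23 moved. With peaks of at least 500 bp, 5.97% of members had a learning peak, 38.8% a homecage peak, 5.97% both, 0% a learning peak alone and 61.2% none (all genes 6.30%, 54.8%, 5.68%, 0.612% and 44.6%), and coverage was 0.654% (learning) and 5.31% (homecage). In gene bodies alone, 31.3% had a homecage peak, 23.9% a homecage peak alone and 64.2% none (all genes 76.9%, 52.8% and 22.4%); H2B genes with a peak numbered 1 (learning) and 3 (homecage), H3 genes 1 and 2, and H4 genes 2 (homecage). With 3 kb windows, 67.2% of members (all genes 87.1%) and 8 H3 genes had a homecage peak. The homecage list shortened to its widest peaks, as many as the learning list, gave 4.48% with a homecage peak, 1.49% both, 17.9% learning alone, 2.99% homecage alone and 77.6% none (all genes 23.1%, 12.9%, 14.1%, 10.2% and 62.8%). Members inside clusters had a learning coverage of 0.854%. The share with a learning peak alone was 2.70% with joined members and 2.99% with 3 kb windows, inside the interval. Members of at most 1 kb, chosen after the data were seen, moved none of the values beyond these limits. Without read depth, a missing peak cannot be told apart from too few reads, and the lengths of the lists limit each comparison between the libraries.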

Other observations

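A few histone genes have current symbols outside the rule but older Hist symbols. H4f16, a single H4 gene on chromosome 6 (136803993 to 136804431), had a learning peak with 270 bp in its window and no homecage peak. No H4 gene of the clusters had a learning peak, and of all protein-coding genes of at most 1 kb 2.54% had one. H2aw and H2bu2, an H2A and an H2B gene on chromosome 11, had homecage peaks covering 1218 and 273 bp and no learning peak. H4bc24, next to H2ac24 on chromosome 13 and known by an older H2B symbol, had 2 homecage peaks covering 1438 bp and no learning peak.

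The histone pseudogene H2ac5-ps, between H3c3 and H2bc3, had 2 learning peaks in it or within 1 kb and no homecage peak, and these are the peaks counted for those genes. The wider peak, of 356 bp, overlapped the pseudogene itself. The pseudogene H2ac14 had 1 homecage peak, and H1f11-ps on chromosome 19 had none.

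Some members without a homecage peak stood in runs. A homecage peak was present at 52.2% of members and at 38.5% of protein-coding genes of at most 1 kb, and neighbouring windows can overlap. Whether the runs were longer than these shares would give was not tested. In the second chromosome 13 cluster, 6 neighbours from H4c8 to H4c6 over 20.6 kb and 5 from H3c3 to H4c2 over 12.3 kb had none in their windows. Outside the windows, the stretch from H4c8 to H4c6 held 1 homecage peak and that from H3c3 to H4c2 held 2. In the first chromosome 13 cluster, 5 neighbours from H2ac12 to H2bc11 over 8.54 kb had none, and no homecage peak lay anywhere in that stretch. Shorter runs there were 3 members from H2bc13 to H3c10 and 4 from H2ac15 to H3c11. The run from H3c3 to H4c2 held 2 learning peaks, and the other runs held none. The longest stretch of a cluster without a homecage peak was 45.4 kb, in the second chromosome 13 cluster.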
